A study of Mus musculus with 9 samples.

Results

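The genes described are growth factor receptors and growth factors of fibroblasts: the receptors Pdgfra, Pdgfrb, Fgfr1, Fgfr2, Egfr and Met and the ligands Hgf, Fgf2, Fgf7 and Kitl. These 10 genes (6 receptors and 4 ligands) were selected by name, and all 10 were found among the 19769 genes of the expression table. Of these, 8 reached the mean level required for a test, and Hgf and Fgfr2 lay below it.

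The receptors are tyrosine kinases that span the cell membrane. A ligand draws receptor chains together, the chains phosphorylate each other, and the signal passes through RAS and the ERK kinases and through PI3 kinase and AKT, with phosphatases and adaptor proteins that damp it from within. Fibroblasts answer PDGF and FGF with growth and migration, and they also secrete factors for neighbouring cells: HGF and FGF7 act mainly on epithelia, and KITL acts on cells that carry KIT, such as mast cells, melanocytes and germ cells.

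RNA was sequenced from primary MEFs (mouse embryonic fibroblasts, grown from embryos after head and viscera had been removed) that were homozygous for a Myc-Egfp fusion at the endogenous Myc locus. Both groups had been kept for 6 h in 20 µM MG-132, which blocks the proteasome, were sorted by GFP into low-MYC and high-MYC cells, and were seeded again overnight in medium with 10% serum. Each group had 2 libraries, which were technical replicates, so that every test compares these libraries and measures technical spread. In the same series, FUBP1 binding was mapped in MEFs at steady state (1 sample), and chromatin accessible to a nuclease was mapped in 4 TACh-seq samples, 2 of wt MEFs and 2 of kokd MEFs, the latter being Fubp1 knockout MEFs with Fubp2 knockdown.

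Levels are fragments per kilobase of transcript divided by a spike-in score (spike-in-normalized FPK). The spike-in was added in proportion to cell number, so a level refers to the cell, and levels per length can be set side by side between genes. Read counts were not used here. From the steps between very low values, the libraries were estimated to hold from 20200000 to 22400000 fragments on genes, and by the same estimate Fgfr2 rested on 5.32 to 6.45 fragments a library, Hgf on 33.6 to 45.8 and every other member on at least 291. This is an estimate only, since 43.8% to 46.1% of the low values lay within 0.1 of a whole fragment, where values without steps would give 20%. Myc itself stood at 9.81 and 9.86 in the low-MYC libraries and at 20.3 and 20.5 in the high-MYC libraries, a ratio of means of 2.07.

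Nearly all genes were higher per cell in the high-MYC libraries. Of 11870 genes tested, 97.1% were called higher (limma, Benjamini-Hochberg adjusted p under 0.01), and the median log2 fold change was 1.03. Each member was therefore read on 2 scales: per cell, and relative to the median gene, after each library had been rescaled to the same median over the genes tested.

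The start regions of the members that lay farthest from the median gene in either direction (Pdgfra, Fgf7 and Kitl above, Met and Egfr below) are shown with short motifs, since accessible chromatin was also measured there. The bases are those of the RefSeq promoter table (GRCm38.p6, forward strand, 5′ to 3′). For Pdgfra, Fgf7 and Egfr the 150 bases before the start are given, and for Met and Kitl 30 bases around a single match. Capitals mark CACGTG (the E-box that MYC is known to bind with MAX), GGGCGG (a GC box, CCGCCC on the other strand), CCAAT and TATAAA. In Kitl the first capitals are the end of a GC box cut by the window.
Pdgfra (chr5:75152101-75152250): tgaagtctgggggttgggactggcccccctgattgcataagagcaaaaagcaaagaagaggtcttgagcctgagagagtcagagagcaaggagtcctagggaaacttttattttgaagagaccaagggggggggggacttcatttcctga
Fgf7 (chr2:126034508-126034657): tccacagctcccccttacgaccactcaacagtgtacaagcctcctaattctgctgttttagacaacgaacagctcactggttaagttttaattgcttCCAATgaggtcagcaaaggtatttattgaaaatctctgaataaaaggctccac
Egfr (chr11:16752053-16752202): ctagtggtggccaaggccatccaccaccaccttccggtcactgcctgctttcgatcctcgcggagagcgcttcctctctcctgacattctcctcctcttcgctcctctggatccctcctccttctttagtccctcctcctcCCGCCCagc
Met (chr6:17463819-17463848): gggacgaacagaCACGTGctgGGGCGGgta
Kitl (chr10:100015784-100015813): GGgagggagctgTATAAAaagcgctggcgg
Pdgfra showed none of these motifs in the bases printed, Fgf7 a CCAAT at position -53 before the start, Egfr a GC box at -9, Met the E-box at -126 beside a GC box at -117, and Kitl the TATAAA at -25. Not shown whole in the bases printed are GC boxes of Kitl at -143, -45 and -41 and of Met at -239 and -20.

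Of the 10 members, 8 had an entry in that table, which covers 250 bases before to 50 after each start. The motifs were searched on both strands. CACGTG was found in 2 of the 8 (Met and, 29 bases into the transcript, Fgfr2) and in 7.15% of all 32851 promoters. GGGCGG was found in 4 of the 8 and in 35.7% of all, CCAAT in 2 of the 8 and in 37.4%, and TATAAA in 1 of the 8 and in 13.6%. The GC content of the 300 bases ran from 43.7% (Fgfr2) to 75.7% (Met), beside a median of 52.7% over all promoters. Between these lay Fgf7 (45.7%), Pdgfra (51.0%), Hgf (51.3%), Egfr (62.3%), Fgf2 (62.7%) and Kitl (68.7%). With 8 genes these are descriptions.

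Among the members, the PDGF receptors and Fgf2 were the most abundant mRNAs and Fgfr2 the least. In low-MYC cells the order of mean FPK was Fgf2 (2.01), Pdgfra (1.93), Pdgfrb (1.701), Fgfr1 (1.41), Fgf7 (1.01), Egfr (0.490), Kitl (0.333), Met (0.251), Hgf (0.0454) and Fgfr2 (0.00627). Fgf2 and Pdgfra overlapped in their libraries and the other neighbours did not. In high-MYC cells Pdgfra (5.62) and Fgf2 (5.16) had changed places, again with overlapping libraries, and this was the only one of 45 pairs in another order. Fgfr1 (3.09) and Fgf7 (2.94) overlapped there, as did Egfr (0.963) and Kitl (0.947), pairs that had been apart in low-MYC cells.

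**Figure D1:**
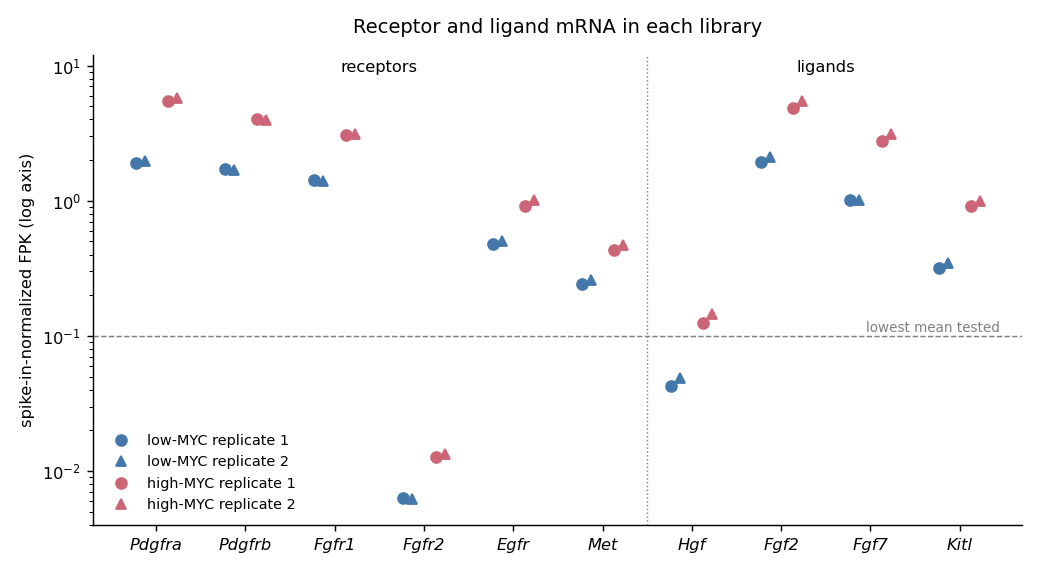
Spike-in-normalized FPK (log axis) of the 10 members in each of the 4 libraries, with low-MYC cells in blue, high-MYC cells in red and the symbol giving the replicate. Both high-MYC libraries lie above both low-MYC libraries for all 10 members, Pdgfra, Fgf2, Pdgfrb and Fgfr1 lie highest, and Fgfr2 lies near 0.01.

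The platelet-derived growth factor receptors were the highest of the receptors. Pdgfra (chr5:75152292-75198215, plus strand, mm10), the receptor chain for PDGF-A and PDGF-C and a mark of mesenchymal cells, stood at 1.91 and 1.96 in low-MYC cells and at 5.46 and 5.77 in high-MYC cells. Pdgfrb (chr18:61045150-61085061, plus strand), the chain that binds PDGF-B and PDGF-D, stood at 1.73 and 1.67 against 4.002 and 3.963. The groups did not overlap for either gene, and the ratio of means was 2.91 for Pdgfra and 2.34 for Pdgfrb. Per cell both rose, Pdgfra by a log2 fold change of 1.49 ± 0.048 (SE, limma, Benjamini-Hochberg adjusted p = 1.04e-05) and Pdgfrb by 1.18 ± 0.043 (limma, adjusted p = 1.04e-05). Relative to the median gene Pdgfra rose by 0.35 ± 0.026 (limma, adjusted p = 0.00802), and Pdgfrb lay at 0.047 ± 0.051 (limma, adjusted p = 0.567), near the median gene. The excess of Pdgfra over the typical gene stood at the 95.3rd percentile of all genes tested. Its call at 0.01 was lost when any one of the 4 libraries was left out, with a highest adjusted p of 0.0714 over all alternatives, while its log2 fold change stayed between 0.28 and 0.37.

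Of the fibroblast growth factor receptors among the members, Fgfr1 was clearly expressed and Fgfr2 was close to the floor. Fgfr1 (chr8:25513654-25575718, plus strand), the main FGF receptor of mesenchyme, stood at 1.42 and 1.41 in low-MYC cells and at 3.05 and 3.12 in high-MYC cells. Without overlap, its ratio of means was 2.18, close to the median ratio of 2.26 over all genes tested. Per cell it rose by a log2 fold change of 1.07 ± 0.043 (limma, adjusted p = 1.04e-05), and relative to the median gene it lay at -0.050 ± 0.035 (limma, adjusted p = 0.387). Fgfr2 (chr7:130162451-133123350, minus strand), of which epithelia use a splice form to receive FGF7 and FGF10, stood at 0.00636 and 0.00617 against 0.0127 and 0.0133. The gene model of the table begins 2.86 Mb upstream of the RefSeq start, at Ctbp2, with which it shares 314 exonic bases on the same strand, so that a part of these few fragments cannot be told apart from Ctbp2. Fgfr2 entered no test at the mean required, and with a pseudocount of 0.001, a setting chosen after seeing the data, its log2 fold change per cell was 0.95 ± 0.23 (limma, adjusted p = 0.0157), under that fit's median of 1.17. With no filter and the pseudocount of 0.1 it was 0.089 ± 0.0099 (limma, adjusted p = 0.00250), so the size depends on the pseudocount.

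Egfr and Met, receptors better known from epithelia, were the members whose increase was smallest. Egfr (chr11:16752203-16918158, plus strand) stood at 0.475 and 0.506 in low-MYC cells and at 0.919 and 1.01 in high-MYC cells. Met (chr6:17463800-17573980, plus strand), the receptor of HGF, stood at 0.242 and 0.259 against 0.429 and 0.473. High-MYC libraries lay above low-MYC libraries for both, with ratios of means of 1.96 and 1.80, both under the median ratio of 2.26. Per cell both rose, Egfr by a log2 fold change of 0.85 ± 0.065 (limma, adjusted p = 5.15e-05) and Met by 0.65 ± 0.066 (limma, adjusted p = 1.77e-04). On the relative scale Egfr lay at -0.18 ± 0.036 (limma, adjusted p = 0.0511) and Met at -0.26 ± 0.039 (limma, adjusted p = 0.0315). Neither passed 0.01, and Met was lower at 0.05, at percentile 3.98 of all genes tested. With no filter on low values Met did not pass 0.05 (limma, adjusted p = 0.0836).

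The ligands had larger ratios than the receptors other than Pdgfra. Fgf2 (chr3:37348346-37410108, plus strand), basic FGF, which leaves cells without a signal peptide and is held by heparan sulphate, stood at 1.94 and 2.09 in low-MYC cells and at 4.84 and 5.48 in high-MYC cells. Fgf7 (chr2:126034658-126091185, plus strand), keratinocyte growth factor, stood at 1.01 and 1.02 against 2.77 and 3.10. Kitl (chr10:100015630-100100416, plus strand), stem cell factor, stood at 0.319 and 0.347 against 0.907 and 0.987. For each of these 3 ligands the groups were apart, with ratios of means of 2.56, 2.91 and 2.84. Per cell all 3 rose, Fgf2 by a log2 fold change of 1.31 ± 0.075 (limma, adjusted p = 1.89e-05), Fgf7 by 1.45 ± 0.065 (limma, adjusted p = 1.14e-05) and Kitl by 1.27 ± 0.066 (limma, adjusted p = 1.52e-05). On the relative scale Fgf7 lay at 0.34 ± 0.036 (limma, adjusted p = 0.0156), Kitl at 0.28 ± 0.041 (limma, adjusted p = 0.0291) and Fgf2 at 0.17 ± 0.047 (limma, adjusted p = 0.0901). None of the 3 passed 0.01, and Fgf7 and Kitl passed 0.05. With no filter on low values neither Fgf7 nor Kitl passed 0.05 (limma, adjusted p = 0.0706 and 0.0941). Exons of Fgf2 share 640 bases with the antisense gene Nudt6; the kit kept strand, and whether the counting used it is not given in the sources used here.

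Hgf (chr5:16553495-16620152, plus strand), hepatocyte growth factor or scatter factor, was the lowest of the ligands and had the largest ratio of means of the 10 members, 2.98. It stood at 0.0423 and 0.0485 in low-MYC cells and at 0.124 and 0.146 in high-MYC cells, without overlap. Exons of Hgf share 484 bases on the same strand with Gm43489, another gene of the expression table. A part of the few Hgf fragments therefore cannot be told apart from Gm43489. The mean of Hgf was below the level tested. With a pseudocount of 0.001, chosen after seeing the data, its log2 fold change was 1.55 ± 0.15 per cell (limma, adjusted p = 5.85e-04) and 0.36 relative to the median gene (limma, adjusted p = 0.155). With no filter and the pseudocount of 0.1 these values were 0.69 ± 0.064 (limma, adjusted p = 0.00146), under that fit's median of 0.79, and 0.17 (limma, adjusted p = 0.176), so the size depends on the pseudocount.

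Both high-MYC libraries lay above both low-MYC libraries for all 10 members, as for 99% of the genes tested. Of the members, 8 of the 8 tested were called higher per cell, where 97.1% of all genes were, so this share is that of the background. Relative to the median gene 1 of 8 was called higher at an adjusted p under 0.01 (Pdgfra), beside 1.76% of all genes tested (limma). Called lower were 0 of 8, beside 0.531%. Without the limma trend 0 of 8 were called in either direction, where 194 of all genes tested were higher and 53 lower. At an unadjusted p under 0.05, 4 of 8 were higher (Pdgfra, Fgf7, Kitl and Fgf2) and 2 of 8 lower (Egfr and Met), where 17.3% of all genes tested were higher and 15.8% lower, the shares against which such counts are to be read here and for the lists that follow. At an adjusted p under 0.05 the counts were 3 higher (Pdgfra, Fgf7 and Kitl), beside 7.84%, and 1 lower (Met), beside 5.08%. These counts moved with the setting. With no filter on low values they were 1 (Pdgfra) and 0, beside 612 and 306 of 19769 genes. With the replicate block they were 4 and 2, beside 937 and 572 of 11870 genes. The pseudocount of 0.001, chosen after seeing the data, gave 2 and 0, beside 755 and 491 of 17477 genes. A pseudocount of 0.01 gave 3 and 2, beside 934 and 604 of 11870 genes. Fits without 1 of the 4 libraries leave 1 library in a group, so their counts at 0.05 are not given. In these fits Met lay between -0.29 and -0.23, Fgf7 between 0.31 and 0.37 and Kitl between 0.24 and 0.32. The ratio of means ran from 1.80 to 2.91 over the 6 receptors, with a median of 2.13, and from 2.56 to 2.98 over the 4 ligands, with a median of 2.88. Relative to the median gene the median log2 fold change was -0.050 over the 5 receptors tested, 0.28 over the 3 ligands tested and -0.0040 over all genes tested. Pdgfra was the receptor that lay with the ligands.

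**Figure D2:**
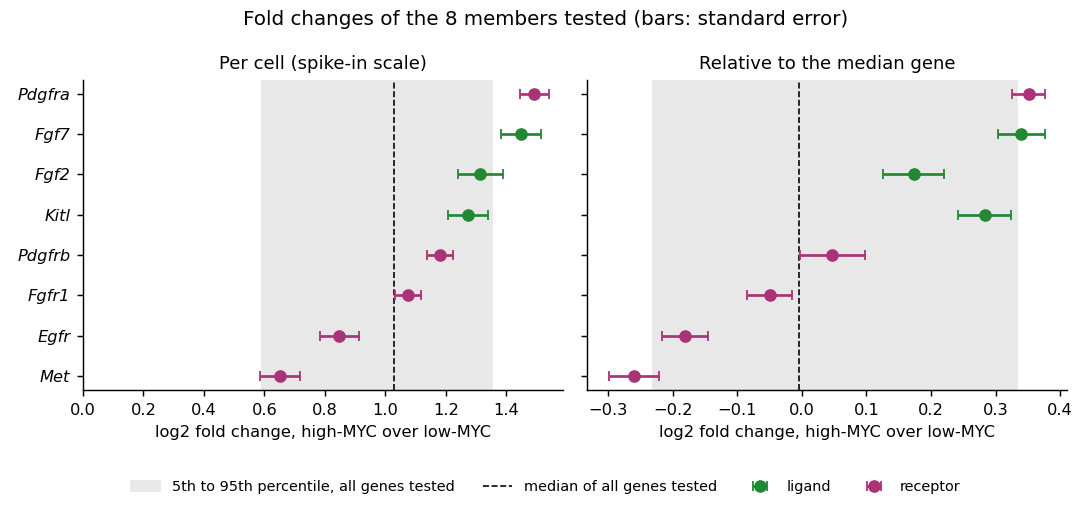
Log2 fold change of high-MYC over low-MYC cells for the 8 members tested, per cell (left) and relative to the median gene (right), with bars of 1 standard error, the median of all 11870 genes tested as a dashed line and their 5th to 95th percentile in grey. Every member lies above 0 per cell, while on the right Pdgfra and Fgf7 lie past the upper edge of the grey band (0.33) and Met lies past its lower edge (-0.23).

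Ratios of 2 levels within a library do not depend on the spike-in score, and 7 were computed. Pdgfra over Pdgfrb was 1.10 and 1.17 in low-MYC libraries and 1.37 and 1.46 in high-MYC libraries. Hgf over Met was 0.174 and 0.187 against 0.289 and 0.309, the largest move of a ligand against its receptor (1.66-fold by group means), and Fgf2 over Fgfr1 was 1.36 and 1.48 against 1.59 and 1.75. Each of these ratios was higher in both high-MYC libraries. Pdgfra over Egfr was 4.02 and 3.87 against 5.95 and 5.73, so the balance between these receptors moved 1.48-fold. Fgf7 over Fgfr2 ran from 158 to 233 and rests on the few fragments of Fgfr2. Hgf over Met likewise rests on the few fragments of Hgf, some of which may belong to Gm43489. With 2 libraries a group an exact two-sided permutation test cannot go below p = 0.333, which each of the 7 ratios gave, and the adjusted value is the same.

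**Figure D3:**
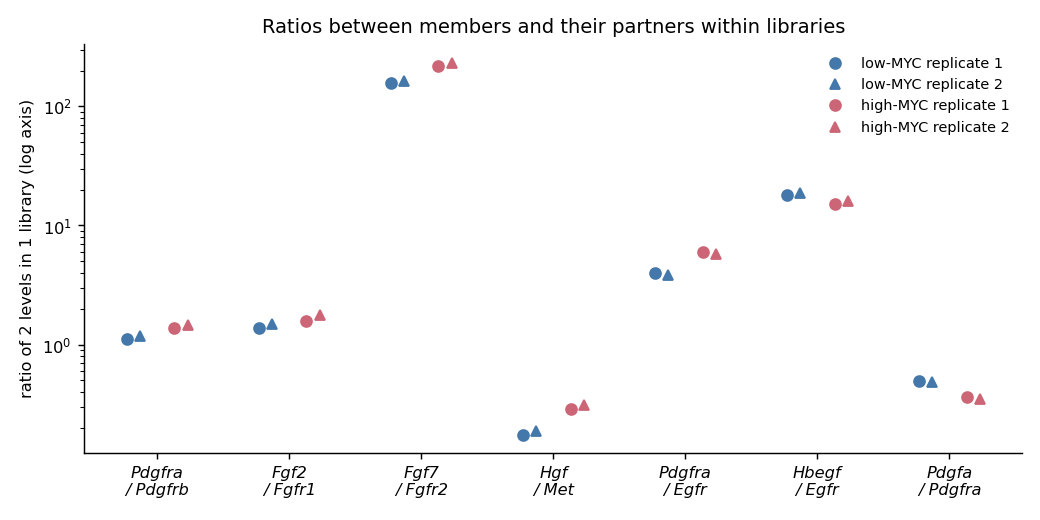
Ratio of 2 spike-in-normalized FPK values within each of the 4 libraries (log axis), for 7 pairs of a member with another member or with a partner ligand, colours and symbols giving group and replicate. The 5 ratios between members lie higher in both high-MYC libraries, and Hbegf over Egfr and Pdgfa over Pdgfra lie lower.

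The partners of the members were mostly low, with Hbegf, Ereg and Pdgfa the highest of those listed. Hbegf and Ereg, both ligands of EGFR that are cut from the membrane, stood at 9.05 ± 0.64 and 3.91 ± 0.26 (SD, n = 2) in low-MYC cells and at 15.1 ± 1.8 and 7.37 ± 0.65 in high-MYC cells, many times the level of Egfr. Set against the median gene, the 3 EGFR ligands tested all lay below: Hbegf at -0.44 (limma, adjusted p = 0.0347), Areg at -0.31 (limma, adjusted p = 0.0776) and Ereg at -0.26 (limma, adjusted p = 0.0553). None passed 0.01, and 3 of 3 were under an unadjusted p of 0.05 (limma). Over all 11870 genes tested, 6113 lay below 0. Egfr lay on the same side. Hbegf over Egfr was 18.1 and 18.8 in low-MYC libraries and 15.1 and 16.2 in high-MYC libraries. The other listed ligands of EGFR (Btc, Egf, Epgn and Tgfa) stood under 0.05 in the mean of either group.

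Pdgfa, whose product binds PDGFRA, stood at 0.938 ± 0.00055 in low-MYC cells and at 2.001 ± 0.029 (SD, n = 2) in high-MYC cells, at -0.081 relative to the median gene (limma, adjusted p = 0.197). Pdgfa over Pdgfra was 0.492 and 0.480 against 0.362 and 0.350, lower in both high-MYC libraries. Pdgfc was at 0.111 and 0.265 in the group means, and Pdgfd and Pdgfb stayed under 0.1. Of the FGF ligands listed, Fgf10, which shares its receptor with FGF7, was the only one tested, at 0.198 against 0.532 and 0.19 relative to the median gene (limma, adjusted p = 0.0432). It lay above the median gene as Fgf7 and Fgf2 did. Fgf1, Fgf5, Fgf9, Fgf18, Fgf21 and Fgf22 stood at 0.118 or less in either group. Kit, the receptor of KITL, was at 0.000320 and 0.000815, far below Kitl in both groups.

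Of 19 other receptor tyrosine kinases tested, all 19 were called higher per cell, and relative to the median gene 1 was called higher and 0 lower at 0.01 (limma; 6 were lower and 4 higher at an unadjusted p under 0.05, and the median was -0.029). Of the 19, 16 had a low-MYC mean of at least 0.1. The gene called higher was Csf1r, the receptor of macrophage colony-stimulating factor and one of the macrophage markers listed, which passed the minimum mean only through the high-MYC group (0.0337 against 0.309 in the group means) and is given as a description. Axl, a receptor for GAS6, was the most abundant receptor of the list at 24.0 against 49.7 and lay at -0.13, and Ddr1, a collagen receptor, lay at -0.046. Flt1 and Kdr, receptors of VEGF, lay lowest, at -0.46 and -0.30, and the ephrin receptor Ephb3 lay at 0.40. Flt4, also a VEGF receptor, lay at -0.25, beside Met (-0.26).

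Among 10 co-receptors and heparan sulphate proteoglycans tested, 1 was called higher relative to the median gene and 0 lower (limma). Some of the 10 hold FGF2 and HGF at the cell surface. At an unadjusted p under 0.05 (limma) 5 were higher and 2 lower. Gpc1, a glypican, rose by 0.61 (limma, adjusted p = 0.00968), from 1.94 to 6.77 in the group means. The syndecans Sdc1 and Sdc4 lay at 0.41 and 0.23 and perlecan (Hspg2) at 0.19, while the MET co-receptor Cd44 lay at -0.34 and the VEGF co-receptor Nrp1 at -0.42. Of the 10, 6 lay above the median gene and 4 below, the syndecan Sdc2 (-0.074) among the latter, with a median of 0.11. Over all 11870 genes tested, 5757 lay above 0 and 6113 below. The counts at 0.01 moved with the setting: 0 higher and 1 lower with libraries rescaled to the same sum, 4 and 2 at a minimum mean of 1, and 0 and 0 with a pseudocount of 1, with no filter or without the limma trend.

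The signalling core that the receptors share moved with the median gene. Of 25 genes tested 25 were called higher per cell, and 0 were called in either direction relative to the median gene (limma; 2 higher and 1 lower at an unadjusted p under 0.05), with a median of -0.012. Their values ran from -0.14 (Sos2, an exchange factor for RAS) to 0.13 (Pik3r2, a PI3 kinase subunit). Akt1 lay at 0.029, Mapk3 (ERK1) at 0.11 and Shc1, an adaptor, at 0.065.

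The feedback inhibitors lay lower. Of 20 tested, 20 were called higher per cell, and relative to the median gene 0 were called higher and 3 lower, beside 0.531% of all genes (limma; 3 higher and 10 lower at an unadjusted p under 0.05). The 3 were the MAP kinase phosphatases Dusp4, at -0.91 (limma, adjusted p = 0.00220), Dusp5, at -0.66 (limma, adjusted p = 0.00643), and Dusp6, at -0.41 (limma, adjusted p = 0.00812). Dusp4 had mean levels of 2.71 and 3.21, low-MYC first, a ratio of 1.18 where the median gene had 2.26. In all, 16 of 20 lay below 0, where 6113 of the 11870 genes tested did. The median of the 20 was -0.11, beside -0.0040 over all genes tested. Errfi1, which inhibits EGFR, lay at 0.034, Lrig1, which lowers EGFR and MET, at 0.19, and Spred3 at 0.20.

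Of 9 tested genes that process ligands, 0 were called higher relative to the median gene and 1 lower (limma; 2 and 2 at an unadjusted p under 0.05). Plaur, the receptor of urokinase, fell by 0.50 relative to the median gene (limma, adjusted p = 0.00704). Plau, urokinase, and Plat, which can both cleave plasminogen, lay at 0.21 and 0.22, and the membrane protease Mmp14 at -0.12. Hgfac and St14, which can activate the HGF precursor, stood under 0.03 in either group, and Hgf itself was low. With any 1 of the 4 libraries left out, the calls of Csf1r, Gpc1, Dusp4, Dusp5, Dusp6 and Plaur at 0.01 were lost, at adjusted p between 0.0191 and 0.0670 (limma), with their directions kept. Without the filter on low values those of Gpc1, Dusp5, Dusp6 and Plaur were lost, at adjusted p between 0.0146 and 0.0340 (limma).

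**Figure D4:**
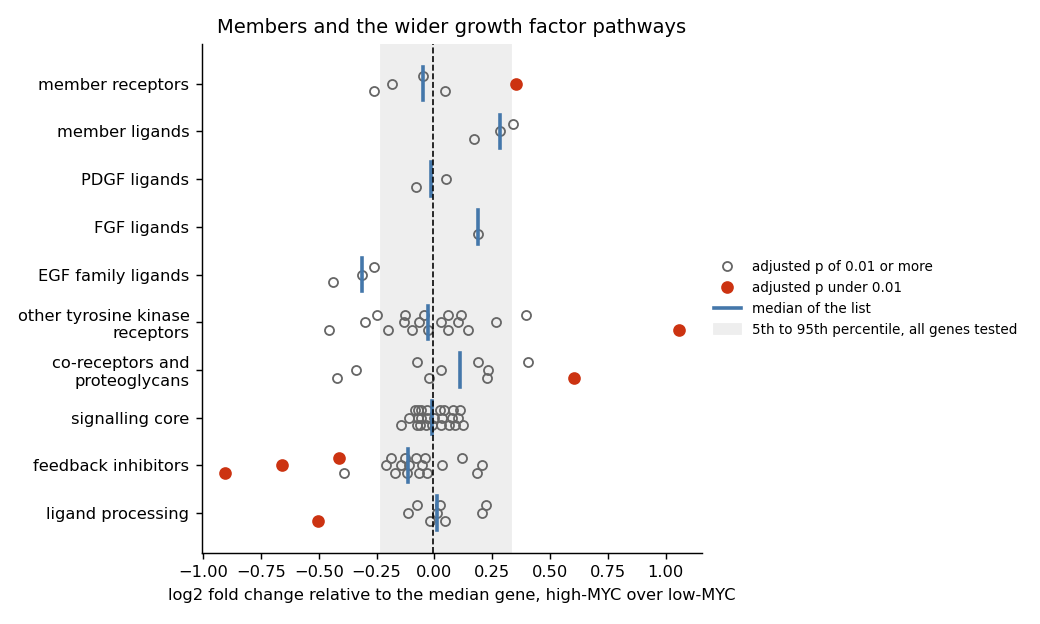
Log2 fold change relative to the median gene for each tested gene of the members and of the pathway lists, with filled red points at an adjusted p under 0.01, a blue line at each list's median and the 5th to 95th percentile of all genes tested in grey. Member ligands lie on the right, EGF family ligands on the left, the signalling core close to 0, and Dusp4, Dusp5 and Dusp6 farthest to the left among the feedback inhibitors.

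Chromatin around the members was read from the TACh-seq table, which lists 4881417 reads without naming a library and only within limited regions. Which of the 4 samples the reads come from, wt, kokd or both, is therefore not known, and wt and kokd cells could not be compared. A value of 0 may mean that the region is not listed. Within 1 kb of the annotated start, 8 of 10 members had reads, where the median gene tested had 127 (quartiles 48 and 205) and 23.3% had 0. Egfr had 231 and Pdgfrb 225, the highest of the members whose start is their own, Met had 111, Fgf7 103, Fgf2 89, Pdgfra 88 and Kitl 81. Egfr and Pdgfrb were past the upper quartile. The order of reads was not that of the mRNA levels. Fgfr1 had 0 at its first annotated start and 106 at another protein-coding start 5135 bp downstream, and Pdgfra had 166 at a start 3607 bp downstream, where the median of the genes tested, each at its protein-coding start with the most reads, was 150. Fgfr2 had 308 at the start of its gene model, which is that of Ctbp2, and 92 at its RefSeq start. Hgf had 0 at every protein-coding start. These counts come from other MEFs than the sorted cells and carry no test.

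**Figure D5:**
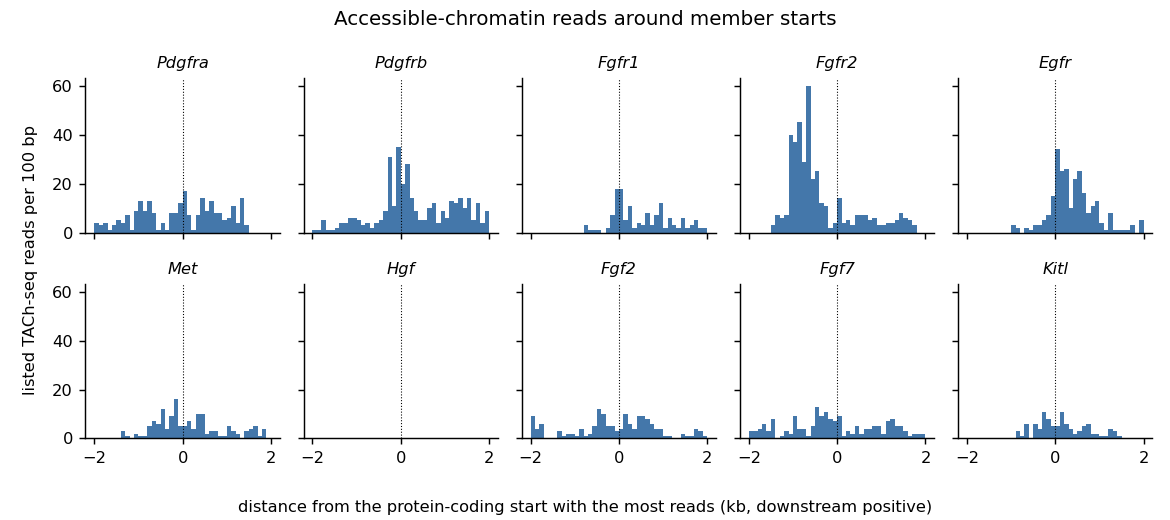
Listed TACh-seq reads per 100 bp within 2 kb of the protein-coding start with the most reads, for each of the 10 members, all listed reads together, with downstream to the right. Fgfr2, whose gene model begins at Ctbp2, reaches the highest bins, Pdgfrb and Egfr follow, and Hgf has 0 reads.

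The FUBP1 peak list used here covers chromosome 15 alone, which holds no member, so FUBP1 binding at the members was not analysed here. Of the pathway genes there, Pdgfb had 0 peaks within the gene and Sdc2, a syndecan, had 1 (chr15:32976601-32979799).

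The cells carried fibroblast mRNAs in both groups, and macrophage mRNAs differed strongly between them. All 15 fibroblast markers listed, among them Col1a1, Vim and Thy1, were above 0.1 in low-MYC cells, and relative to the median gene 3 of 15 were called higher and 0 lower (limma; 11 higher and 1 lower at an unadjusted p under 0.05), with a median of 0.27, near that of the member ligands. The 20 macrophage markers summed to 0.970 and 1.33 in low-MYC libraries and to 30.6 and 31.9 in high-MYC libraries, so that both high-MYC libraries lay far above. Of the 12 that reached the mean required for a test, only 2 had a low-MYC mean of at least 0.1, and the others passed only through the high-MYC group, so no count of calls is given. Adgre1, C1qa and Tyrobp were listed at 0 in low-MYC replicate 1. Their part in the values of Pdgfra, Fgf7, Kitl, Hgf and Csf1r was not tested. In such bulk samples more cells of a type and more RNA per cell cannot be told apart. Mural cells are known for Pdgfrb. Of 4 mural cell markers tested, 1 was called lower (Mcam, -0.88, limma, adjusted p = 0.00260) and 0 higher, with Notch3 on the other side at 0.44 (limma, adjusted p = 0.0221; 1 was higher and 2 lower at an unadjusted p under 0.05), and their 7 listed genes summed to 12.9 and 13.0 against 18.7 and 19.6. Of the endothelial (2), epithelial (2), mast cell (1) and neural (2) markers tested, 0 were called in either direction at 0.01 (limma; 1 endothelial and 1 epithelial gene were lower, and 1 epithelial and 1 neural gene higher, at an unadjusted p under 0.05). The higher epithelial gene, Krt18, passed the minimum mean only through the high-MYC group (0.0742 against 0.279 in the group means). It is given as a description. No lymphocyte marker reached the level tested.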

How the data were processed

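For RNA-seq, the authors used TopHat to align reads (mm10) and the expectation-maximization method of Partek to quantify them; values were scaled to transcript length and to the geometric mean of 10 ERCC spike-in transcripts, which had been added by cell number. The deposited signal values are these spike-in-normalized FPK. Versions of TopHat and Partek are not given in the sources used here. Reads shared by overlapping or near-identical genes are split by the quantification. The deposited TACh-seq table gives read positions and a mapping score per read, and the deposited FUBP1 peak list gives positions only.

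Log2(FPK + 0.1) was compared with limma 3.58.1 (lmFit, eBayes with trend) in R 4.3.3 for the 11870 genes whose mean over 4 libraries reached 0.1, with Benjamini-Hochberg adjustment over all of them and calls at an adjusted p under 0.01, on the spike-in scale and after rescaling each library to the same median. Fold changes on this scale understate low genes. The fit on the median scale was tested on simulated data at an adjusted p under 0.01. It recovered 5 of 50 genes with a log2 change of 0.5, 27 of 50 at 1, 45 of 50 at 2 and 26 of 50 at -1. False calls among unchanged genes numbered 0. The simulated spread came from the replicates on the spike-in scale, where a shift of a whole library adds to each gene. These rates may thus differ from those of the median-scale fit to the data. A gene that was not called on the median scale may still have moved. TACh-seq reads were counted within 1 kb of starts. Groups follow the sample labels. The members and gene lists were chosen with earlier results of these data known. Besides the members, the genes named are the listed ligands and partners and, of every other list, the 2 highest in level and the 2 at either end of the fold changes; Hgfac, St14, Sdc2, Flt4, Mcam, Notch3 and the markers were named after their values were seen, and 1 gene that this rule names is not reported here. Alternatives covered pseudocount, minimum mean, scaling, trend, replicate block, threshold, left-out libraries and the TACh-seq window. Other steps ran in Python 3.11.15 with scipy 1.17.1, numpy 2.4.6 and pandas 2.3.3, and plots were drawn with matplotlib 3.10.9.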

Additional observations from a re-analysis of the deposited data

How the results depend on the processing

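Per cell, 8 members tested were called higher under every alternative that kept the spike-in scale, apart from a minimum mean of 1, where 5 members remained in the test and 5 were called (5596 genes in all). On libraries rescaled to the same median or the same sum, 1 member was called higher, with 209 and 210 genes higher and 63 and 61 lower; Fgfr1 turned to -0.0498 and -0.0352, Egfr to -0.18 and -0.17 and Met to -0.26 and -0.25, which is the rescaling itself. The number of genes called lower per cell was 3, and it was 8 without the filter, 5 with the replicate block, 5 at an adjusted p under 0.05, 7 with the pseudocount at 0.001 and the minimum at 0.005 (added after seeing the data) and 6 to 8 with a library left out.

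On the scale of the median gene the call of Pdgfra was less firm than its value. Members called higher numbered 1 in the main test, 2 at a minimum mean of 1 (318 genes higher, 213 lower), 0 without the filter (64 and 7), 0 without the limma trend, 0 with the added pseudocount (72 and 10) and 3 higher and 1 lower at 0.05 (931 and 603 genes). With the replicate block 0 members and 0 genes were called in either direction (limma; 2363 genes higher and 2252 lower at an unadjusted p under 0.05, with 937 and 572 at an adjusted p under 0.05). Whether the replicate numbers pair the samples cannot be settled from 2 numbers (correlation of deviations 0.081). With the replicate block the standard error per cell was smaller for each of the 8 members tested, for Fgf2 0.0371 in place of 0.0748. With any library left out, 0 members were called at 0.01, and 0 to 11 genes were called higher and 0 lower (limma; 1364 to 1984 higher at an unadjusted p under 0.05). Fewer libraries leave fewer degrees of freedom, and the lone library is then assumed to vary like the other group. Directions held for the 8 members tested in all alternatives run, except Pdgfrb, at -0.00291 without high-MYC replicate 1 (up to 0.0972 without the other replicate). Among other named genes near 0, Akt1 was at -0.00316 without the filter, at -0.00141 with the added pseudocount and at -0.00513 and -0.0130 without low-MYC replicate 2 and high-MYC replicate 1 (up to 0.0719 without a library), Errfi1 at -0.0243 and -0.00650 without low-MYC replicate 1 and high-MYC replicate 2 (up to 0.0921), and Ddr1 at 0.0155 without the latter (down to -0.107). Depth limits Fgfr2 and Hgf.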
